A study of Mus musculus with 3 samples.

Results

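Forkhead box (Fox) genes encode transcription factors that share a DNA-binding forkhead domain, and 10 of them with roles in mesenchymal cells, Foxc1, Foxc2, Foxd1, Foxf1, Foxf2, Foxo1, Foxo3, Foxo6, Foxp1 and Foxs1, were read out of the 43472 gene rows of the table. The genes were taken by name and had been chosen by their normalized counts in these same 3 libraries, so their levels and the ratios between libraries are a description without a test. RNA-seq had been performed on primary fibroblasts from the tail tips of C57BL/6 mice, cultured as monolayers, wounded with a scratch and exposed for 5 h to the soluble micrograft (MG), a filtered extract of minced mouse skin, together with PD0325901, an inhibitor of the kinase MEK upstream of ERK. The 3 libraries are labelled replicates 1, 2 and 3 of this single condition and shared the strain, the wound, the kind of extract and the inhibitor. The study calls the cells adult fibroblasts, and the exact age of the mice is not given in the sources used here. Whether the replicates were separate mice, cultures or extract preparations is not given in the sample titles or the methods of the study. Untreated and MG-only cultures were not analysed here, so every comparison below lies between replicates of 1 condition and none describes an effect of the extract or of the inhibitor.

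FOXC, FOXD, FOXF and FOXS proteins pattern mesoderm and neural crest derivatives during development and stay expressed in regional subsets of fibroblasts and pericytes. FOXO proteins link growth factor signaling to transcription: phosphorylation by AKT, and for FOXO3 also by ERK, moves them from the nucleus to the cytoplasm, where 14-3-3 proteins hold them. FOXP proteins are repressors that work as dimers and recruit corepressor complexes. Transcript counts report none of these protein states, as they measure only how much mRNA was present.

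Values are normalized counts, that is, reads on a gene divided by 1 size factor per library, and detected means at least 10 of them in each of the 3 libraries. The libraries held 22540518, 27037783 and 17244505 reads on genes in replicates 1, 2 and 3, so that the 3-read limit behind a count of 0 came to 2.61, 2.11 and 3.56 normalized counts. All intervals given are exact Poisson or exact binomial 95% intervals and cover counting error only, since the reads carried no molecular identifiers. Replicate 2 stood apart from the others across the transcriptome, more than 2-fold from both other libraries in 10.1% of 13154 genes with a mean of at least 10, against 4.26% for replicate 1 and 3.58% for replicate 3. Means are therefore given with all 3 libraries and also without replicate 2. In bulk RNA, fewer cells of a type and less RNA per cell cannot be told apart.

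Of the 10 forkhead genes, 8 were detected in all libraries, Foxd1 was detected in replicates 1 and 3 only, and Foxo6 was at the limit of counting. Foxp1 and Foxo3 collected the most reads, and Foxo3 was the steadiest. The genes fell into 3 patterns. Foxc1, Foxd1, Foxf1, Foxf2 and Foxo1 were lowest in replicate 2, Foxc2, Foxp1 and Foxs1 were highest there, and Foxo3 barely moved.

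**Figure D1:**
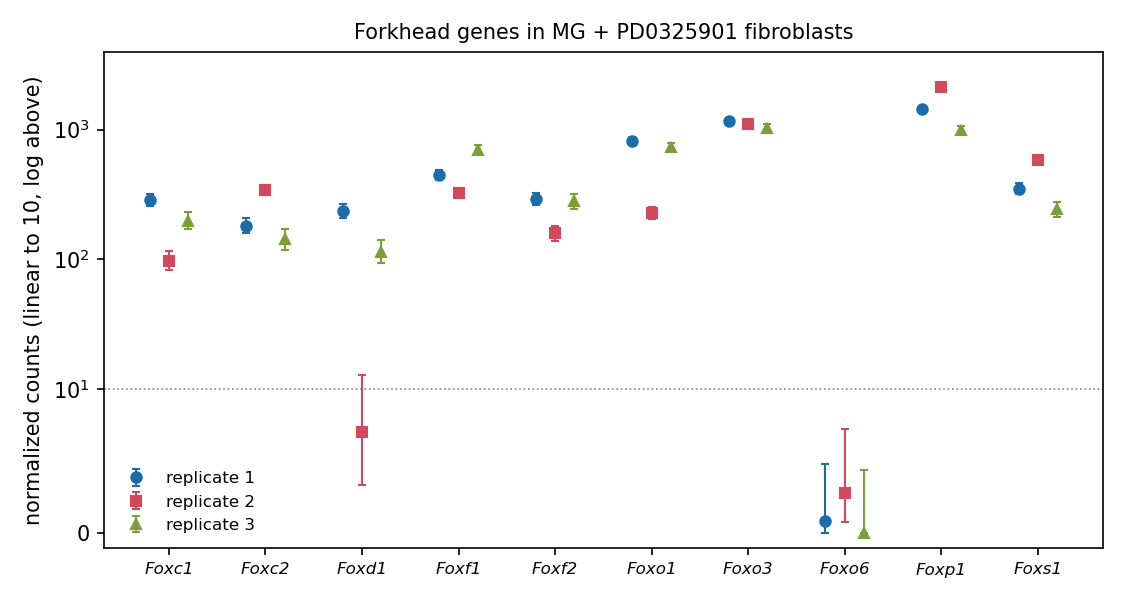
Normalized counts of the 10 forkhead genes (y axis, linear up to 10 and logarithmic above) in replicates 1, 2 and 3, with exact Poisson 95% intervals as bars and the detection minimum of 10 as a dotted line. Foxd1 drops to 7.05 in replicate 2, Foxo6 stays below the line in every library, and the 3 symbols of Foxo3 lie side by side.

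Foxd1, a marker of stromal progenitors in the kidney that is also active in embryonic mesenchyme, showed the widest spread. It is located on chromosome 13 from 98354242 to 98359305 on the plus strand (GRCm38). Normalized counts were 237 in replicate 1, 7.05 in replicate 2 and 115 in replicate 3, from 273, 10 and 97 reads. Replicate 2 lay far below the others, and replicate 1 also lay above replicate 3. The ratio of replicate 1 to replicate 2 was 33.6 (95% interval 18.02 to 71.0), that of replicate 3 to replicate 2 was 16.3 (8.50 to 35.1) and that of replicate 1 to replicate 3 was 2.06 (1.63 to 2.63). The mean was 119.7 ± 115 normalized counts (SD, n = 3), and it was 176.0 without replicate 2 and 61.0 without replicate 1.

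Foxc1, needed for mesenchyme of the eye, skull and vessel wall, and its paralog Foxc2, best known from lymphatic vessels and their valves, moved in opposite directions. Foxc1 (chromosome 13, 31806633 to 31812476, plus strand) had 287, 97.9 and 199 normalized counts. The mean of Foxc1 was 195 ± 94.4 (SD, n = 3), and 243 without replicate 2. Replicate 2 was lowest, with replicate 3 above it by 2.03-fold (1.61 to 2.56), so the counting interval reaches below 2. With libraries scaled to equal totals this last ratio was 1.89, on the scale of normalized count + 1. Foxc2 (chromosome 8, 121116171 to 121118895, plus strand) had 182, 345 and 143 normalized counts, and the mean of Foxc2 was 223 ± 107 (SD, n = 3), or 163 without replicate 2. Here replicate 2 was highest, 1.89-fold (1.60 to 2.23) above replicate 1 and 2.40-fold (1.97 to 2.96) above replicate 3.

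The FOXF pair, effectors of hedgehog signaling in the mesenchyme of gut and lung, was lowest in replicate 2, though by less. For Foxf1 (chromosome 8, 121084386 to 121088144, plus strand) the libraries had 445, 326 and 699 normalized counts, with replicate 3 above both others. The ratio of replicate 3 to replicate 1 was 1.57 (1.39 to 1.77) and that of replicate 1 to replicate 2 was 1.36 (1.20 to 1.55). Foxf2 (chromosome 13, 31625816 to 31631403, plus strand), which also marks brain pericytes, had 293, 159 and 279.7 normalized counts. Replicates 1 and 3 could not be separated by counting, at a ratio of 1.05 (0.89 to 1.24), and both lay above replicate 2. Means were 490.0 ± 191 for Foxf1 and 244 ± 73.9 for Foxf2 (SD, n = 3), and 572 and 287 without replicate 2.

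Foxs1, a compact gene expressed in pericytes and neural crest derivatives, followed Foxc2. It lies on chromosome 2 from 152931898 to 152933208 on the minus strand and had 349.9, 581 and 243 normalized counts in replicates 1, 2 and 3. Replicate 2 was 1.66-fold (1.47 to 1.88) above replicate 1 and 2.39-fold (2.05 to 2.80) above replicate 3. The mean was 391 ± 173 (SD, n = 3), and 296 without replicate 2.

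Among the FOXO genes, Foxo1 varied widely and Foxo3 little. Foxo1 (chromosome 3, 52268336 to 52353221, plus strand), the FOXO factor best known from insulin signaling, had 822, 228 and 729 normalized counts. Replicate 2 was far below both other libraries, 3.61-fold (3.18 to 4.11) below replicate 1 and 3.20-fold (2.79 to 3.68) below replicate 3, while replicates 1 and 3 differed by 1.13-fold (1.02 to 1.25). Foxo1 had a mean of 593 ± 319.8 normalized counts (SD, n = 3), and of 776 without replicate 2.

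Foxo3 (chromosome 10, 42181841 to 42276755, minus strand), which drives cell cycle arrest, antioxidant and autophagy genes, had 1173, 1099 and 1029 normalized counts. The mean was 1100.4 ± 72.2 (SD, n = 3). The 3 libraries lay within a 1.14-fold range, with a ratio of replicate 1 to replicate 3 of 1.14 (1.05 to 1.24). A smaller range was found in 8.64% of detected genes. Its mean was 1101 without replicate 2, so the library that stood apart for its paralog made no difference here. Foxo6 (chromosome 4, 120267079 to 120287349, minus strand), a FOXO gene of the nervous system, had 1, 4 and 0 reads. At 0.87, 2.82 and 0 normalized counts it was at or near the limit of 3 reads in each library, and no fold is given for it.

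Foxp1, a repressor that controls differentiation in lung, heart and lymphocytes, had the highest mean normalized count of the set. Across its span on chromosome 6 from 98925338 to 99522721 (minus strand), the libraries had 1454, 2124 and 989.7 normalized counts. The mean of Foxp1 was 1523 ± 570.1 (SD, n = 3), and 1222 without replicate 2. Replicate 2 was highest, 1.46-fold (1.37 to 1.55) above replicate 1 and 2.15-fold (1.99 to 2.32) above replicate 3. With 835 reads in the shallowest library, the counting error of Foxp1 there was 3.46%.

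**Figure D2:**
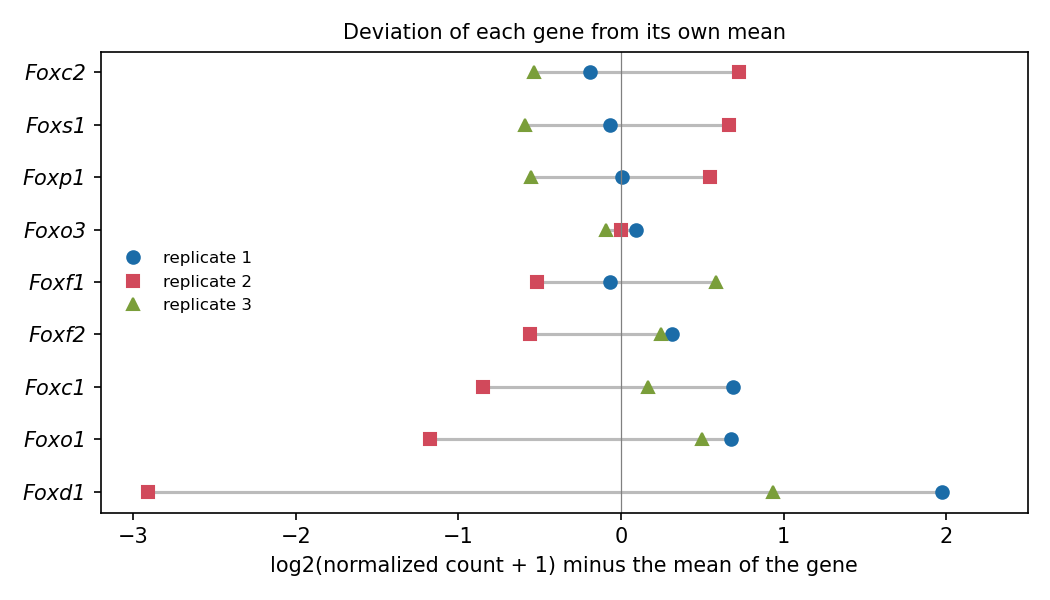
Deviation of log2(normalized count + 1) in each library from the mean of the gene over the 3 libraries (x axis), for the 9 genes other than Foxo6, with 1 symbol per replicate. Replicate 2 lies at the right end for Foxc2, Foxs1 and Foxp1, in the middle for Foxo3 and at the left end for the other 5 genes, from -0.51 for Foxf1 to -2.91 for Foxd1.

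The reference sequence around the start of transcription is shown for the 3 genes in which replicate 2 lay more than 2-fold below both other libraries, Foxd1, Foxc1 and Foxo1, and for the steady Foxo3. Each window runs from 250 bases before to 50 bases after the start, is printed 5′ to 3′ on the strand of the gene from RefSeq (GRCm38.p6), and carries GC boxes (GGGCGG or its reverse complement CCGCCC), the sites of Sp1-type factors, in capitals. The windows are chr13:98353995-98354294 (plus), chr13:31806396-31806695 (plus), chr3:52268087-52268386 (plus) and chr10:42276646-42276945 (minus).
Foxd1: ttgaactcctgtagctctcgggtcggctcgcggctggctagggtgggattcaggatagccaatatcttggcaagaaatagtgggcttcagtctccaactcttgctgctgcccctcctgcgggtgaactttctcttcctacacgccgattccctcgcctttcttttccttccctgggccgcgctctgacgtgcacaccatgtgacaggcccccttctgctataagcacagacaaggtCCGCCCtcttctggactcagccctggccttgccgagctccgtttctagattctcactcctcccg
Foxc1: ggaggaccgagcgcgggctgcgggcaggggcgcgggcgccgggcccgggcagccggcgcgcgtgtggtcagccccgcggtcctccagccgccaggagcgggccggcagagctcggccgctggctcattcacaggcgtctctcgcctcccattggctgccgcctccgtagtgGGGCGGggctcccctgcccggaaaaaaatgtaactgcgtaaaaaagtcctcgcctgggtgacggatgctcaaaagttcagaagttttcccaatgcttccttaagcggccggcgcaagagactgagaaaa
Foxo1: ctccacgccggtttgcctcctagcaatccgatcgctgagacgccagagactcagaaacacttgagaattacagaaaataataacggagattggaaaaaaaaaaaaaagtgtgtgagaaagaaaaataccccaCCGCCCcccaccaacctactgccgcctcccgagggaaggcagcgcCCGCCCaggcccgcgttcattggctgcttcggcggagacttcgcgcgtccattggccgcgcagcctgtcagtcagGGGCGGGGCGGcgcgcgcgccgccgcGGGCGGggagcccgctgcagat
Foxo3: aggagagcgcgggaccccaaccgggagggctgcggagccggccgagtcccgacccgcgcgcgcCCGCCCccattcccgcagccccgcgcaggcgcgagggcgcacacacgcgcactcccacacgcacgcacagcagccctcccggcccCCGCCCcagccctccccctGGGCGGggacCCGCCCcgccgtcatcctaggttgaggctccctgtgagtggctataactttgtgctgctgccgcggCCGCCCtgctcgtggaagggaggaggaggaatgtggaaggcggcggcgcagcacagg

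Windows were found for 6 of the 10 genes, Foxc1, Foxd1, Foxf2, Foxo1, Foxo3 and Foxp1, the last with 3 starts. None of these 8 windows held the forkhead motif GTAAACA, the AP-1 motif TGAGTCA or a TATAAA box on either strand, which occur in 3.65%, 5.20% and 13.6% of all 32851 windows. GC boxes, present in 35.7% of all windows, occurred once each in Foxc1 and Foxd1, at 2 places in Foxf2, at 3, 0 and 1 in the windows of Foxp1 and at 5 in both Foxo1 and Foxo3, where 1 pair in Foxo1 overlapped. GC content was 57.7% in Foxd1, 67.3% in Foxc1, 61.3% in Foxo1 and 75.0% in Foxo3, against a median of 52.7% over all windows. The ratio of observed to expected CpG was 0.62 in Foxd1, 0.94 in Foxc1, 1.10 in Foxo1 and 0.83 in Foxo3, with a median of 0.38 over all windows. Foxo1 and Foxo3 thus shared their number of GC boxes. Whether such boxes bear on the spread between replicates was not tested. These matches are descriptions of letters and not of bound sites.

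Longer transcripts collect more reads, so levels of different genes were compared per kb of exon. On this scale Foxs1, with an exonic length of 1311 bases, ranked first at 299 ± 132 normalized counts per kb (SD, n = 3), above 74.7% of the detected genes with an annotated length, a lead that it did not keep without replicate 2. Foxf1 followed with 203 ± 78.9 and Foxo3 with 145 ± 9.53 normalized counts per kb. Foxp1, first by normalized count but with 13751 bases of exon, came next with 111 ± 41.5 per kb, close to Foxf2 with 103 ± 31.3. Foxc2 had 82.0 ± 39.1, Foxo1 68.4 ± 36.9 and Foxc1 33.3 ± 16.2 normalized counts per kb. Foxd1 had 23.6 ± 22.7 per kb, above 17.7% of detected genes, and Foxo6 had 0.47 ± 0.55.

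The ranges over the 3 libraries overlapped for every pair of neighbours in this order except Foxd1 and Foxo6. Foxs1 ranked first in replicates 1 and 2, with 267 and 443 normalized counts per kb, but in replicate 3 it had 185 and Foxf1 had 289.6. Foxo3 held rank 3 in each library, and Foxc1, Foxd1 and Foxo6 held the last 3 places in the same order throughout. Without replicate 2, 6 of the 10 ranks by mean changed, the first included. Foxf1 then led with 237 normalized counts per kb, ahead of Foxs1 with 226. Foxf2 and Foxo1 moved above Foxp1, Foxo1 only narrowly with 89.5 against 88.9. The lead of Foxs1 by mean thus did not hold without replicate 2, although Foxs1 was also first in replicate 1.

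**Figure D3:**
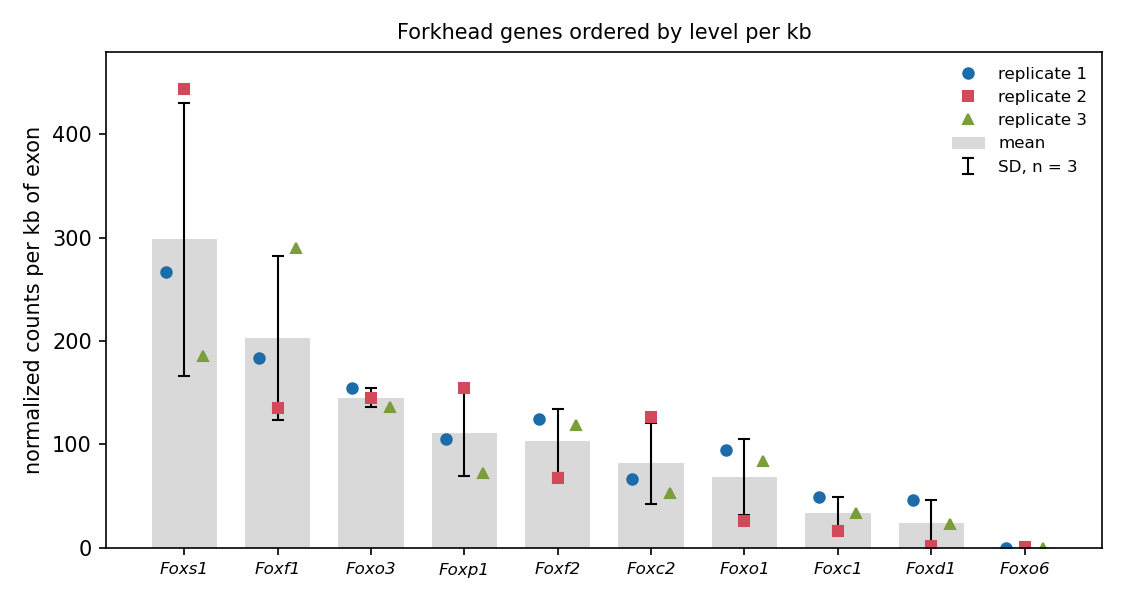
Normalized counts per kb of exon (y axis, from 0) for the 10 genes ordered by mean, with the mean as a bar, the SD over 3 libraries as an error bar and each replicate as a symbol. Foxs1 leads with a mean of 299, and the symbols of neighbouring genes overlap down to Foxd1.

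Ratios of paralogs within a library do not depend on the size factors. Foxc2 stood above Foxc1 per kb in each library, by 1.36-fold (1.14 to 1.63) in replicate 1, 7.54-fold (6.24 to 9.18) in replicate 2 and 1.54-fold (1.21 to 1.96) in replicate 3. The intervals of replicates 1 and 3 overlapped and that of replicate 2 lay above both. The same held for Foxo3 over Foxo1, at 1.63-fold (1.501 to 1.78), 5.53-fold (4.90 to 6.25) and 1.62-fold (1.46 to 1.79) per kb. Foxo1 made up 23.9%, 8.27% and 24.2% of the summed per-kb level of the FOXO genes Foxo1, Foxo3, Foxo4 and Foxo6 in replicates 1, 2 and 3. Foxf1 exceeded Foxf2 by 1.48-fold (1.29 to 1.71), 2.00-fold (1.71 to 2.36) and 2.45-fold (2.10 to 2.86) per kb, with replicate 3 rather than replicate 2 at the top. Per kb, Foxp1 was below its dimer partner Foxp4 in every library, at 0.45 (0.42 to 0.48), 0.71 (0.67 to 0.75) and 0.24 (0.22 to 0.27) of the Foxp4 level. This order depends on the length used, the union of all annotated exons, which is 13751 bases for Foxp1. By reads alone Foxp1 exceeded Foxp4 in replicates 1 and 2, with 1675 against 1335 and 3014 against 1525. In replicate 3 it had 835 reads against 1229.

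Of the members, 4 sit in a pair of forkhead clusters, which allows neighbours to be compared. On chromosome 8, Foxf1, Foxc2 and Foxl1 are on the plus strand, with gaps of 28.0 kb from Foxf1 to Foxc2 and 9.05 kb from Foxc2 to Foxl1. Foxl1, a factor of the mesenchyme under gut epithelium, had 15.6, 161 and 11.9 normalized counts in replicates 1, 2 and 3. Foxc2 and Foxl1 were thus both highest in replicate 2, and Foxf1, in the same cluster, was lowest there. Fendrr, a long noncoding RNA transcribed away from Foxf1 on the opposite strand 1.28 kb upstream, had 28.7, 50.7 and 79.4 normalized counts and shared with Foxf1 only its maximum in replicate 3.

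On chromosome 13, Foxq1, Foxf2 and Foxc1 are also all on the plus strand, with 64.8 kb between Foxq1 and Foxf2 and 175 kb between Foxf2 and Foxc1. Foxf2 and Foxc1 were both lowest in replicate 2. Foxq1 had 33.9, 18.3 and 14.2 normalized counts from only 39, 26 and 12 reads. Its minimum fell in replicate 3, but the order of replicates 2 and 3 rests on few reads and is not interpreted. Reads of the gene Gm20388, whose annotated span covers Foxf1 and Foxc2, were at 0 in all 3 libraries, as were those of Gm20402, an antisense gene inside Foxo1. Whether strand was used in counting is not given in the sources used here, and reads shared by overlapping genes could have been assigned otherwise.

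**Figure D4:**
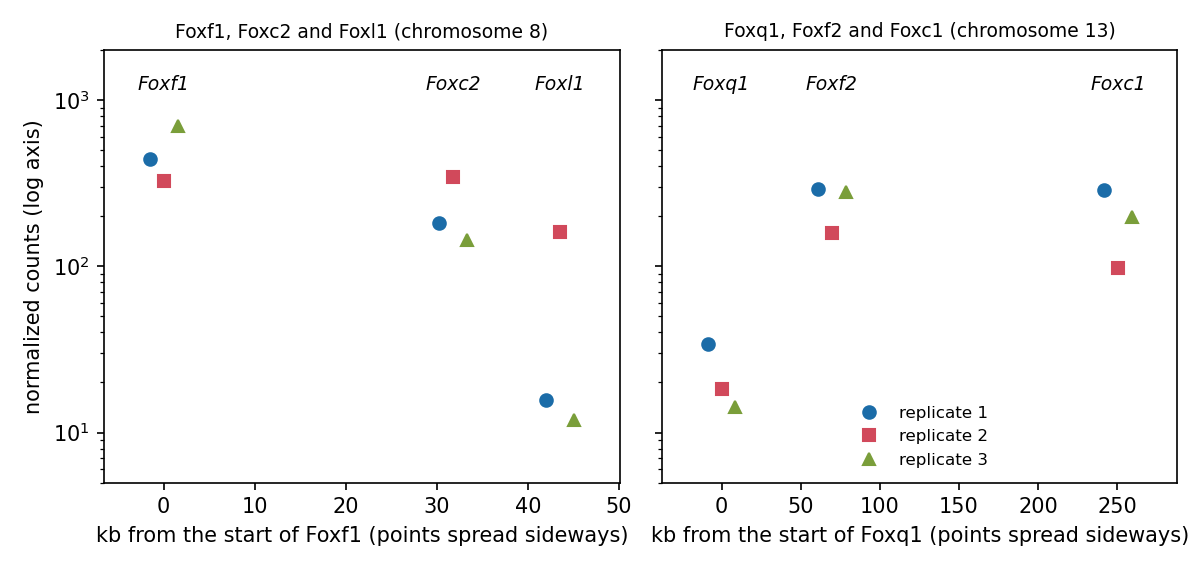
Normalized counts (y axis, logarithmic) of the forkhead genes of the chromosome 8 and chromosome 13 clusters against the distance of each gene start from the first gene in kb, with 1 symbol per replicate, spread sideways for legibility. Replicate 2 is lowest for Foxf1 but highest for Foxc2 and Foxl1, and lowest for Foxf2 and Foxc1.

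Among the 8 detected members, 6 spanned more than 2-fold from the lowest to the highest library on the scale of normalized count + 1, namely Foxc1, Foxc2, Foxf1, Foxo1, Foxp1 and Foxs1. The share over all 12204 detected genes was 21.6%, and the median ratio of highest to lowest was 2.27 for the 8 members and 1.49 for all detected genes. As the members were picked with these values known, nothing is read from the difference. Between replicates 1 and 3 alone, 0 of the 8 members differed by more than 2-fold, against 6.06% of detected genes, so all 6 calls needed replicate 2. Foxd1, at 2.06-fold between these replicates, is not among the 8, as detection was judged in all 3 libraries. With libraries scaled to equal totals the count of 6 became 5, as the range of Foxf1 became 1.995. Without replicate 3 the count was 2 of 8, Foxc1 and Foxo1, against 15.1% of detected genes, and without replicate 1 it was 6 of 8, against 12.7%.

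Counted by library, 9 members had a mean of at least 10. Replicate 2 lay more than 2-fold below both others for 3 of them, Foxc1, Foxd1 and Foxo1, against 4.87% of all 13154 genes, and above both others for 0, against 5.2%. With equal totals the count below both others was 2, without Foxc1. Replicate 1 lay more than 2-fold above both others for Foxd1 alone, against 2.29% of genes, and replicate 3 lay below or above both others for 0 members, against 2.3% of genes below and 1.28% above both. By rank, replicate 2 was lowest for 4 of 8 detected members and highest for 3, where the shares over all detected genes were 37.3% and 40.6%. Replicate 1 was highest for 4 of 8, Foxc1, Foxf2, Foxo1 and Foxo3, against 31.5% of detected genes.

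**Figure D5:**
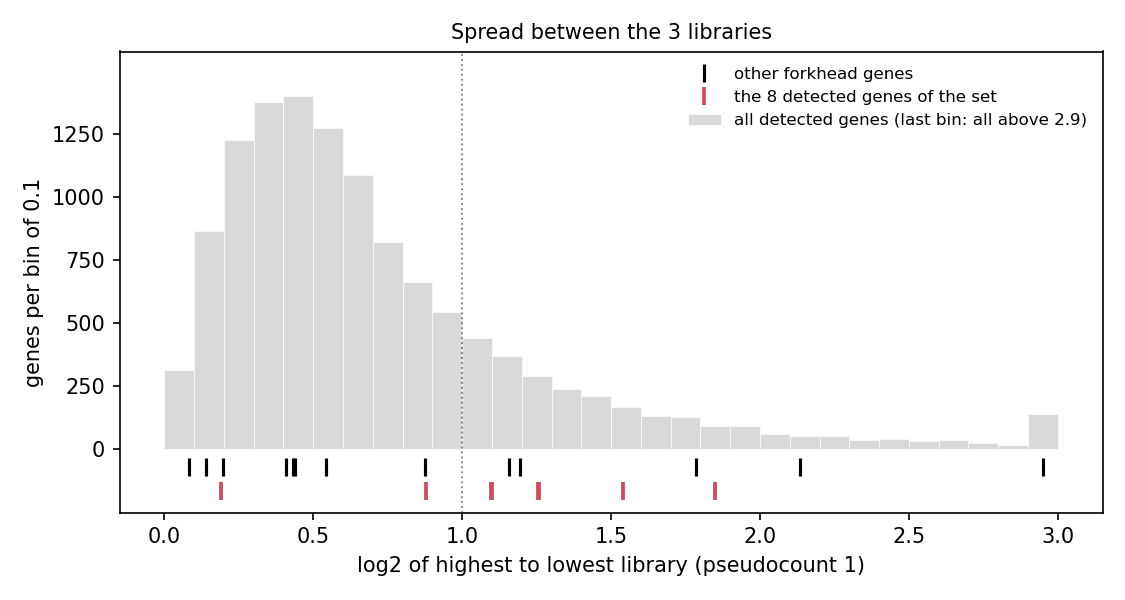
Histogram of the log2 ratio of the highest to the lowest library over 12204 detected genes (x axis, pseudocount 1; y axis, genes per bin), with ticks below it for the 8 detected genes of the set and the other detected forkhead genes, and a dotted line at 2-fold. Of the 8 genes 6 lie right of the line, and Foxo3 lies near the left edge.

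The whole mouse forkhead family has 44 genes in the list used, of which 21 were detected and 11 had no reads. Outside the 10 members, 13 of 34 were detected, and 5 of these 13 had a more than 2-fold range. That share was 38.5%, against 21.6% of all detected genes. The members held 50.4%, 45.8% and 45.9% of the summed per-kb level of the family in replicates 1, 2 and 3. Among the 21 detected family genes, by the ratio of highest to lowest, Foxl1 with 12.6, Foxn3 with 4.39 and Foxo1 with 3.60 had the widest spread, and Foxj3 with 1.06, Foxj2 with 1.10 and Foxo3 with 1.14 the narrowest. Foxn3, a repressor of checkpoint and cell cycle genes, had 21.7, 98.6 and 48.6 normalized counts. Foxj3 and Foxj2 had 765 ± 24.1 and 588 ± 28.9 (SD, n = 3), and Foxo4, the remaining FOXO gene, had 487 ± 36.6.

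Upstream of the FOXO factors, all 22 listed kinases, 14-3-3 genes, ligases and cofactors were detected. Against 21.6% of all detected genes, 13.6% of the list, 3 genes, had a more than 2-fold range. These were Skp2, a ubiquitin ligase subunit that targets FOXO1, with 175, 398 and 147 normalized counts, Pdpk1, the kinase that activates AKT, with 627, 1325 and 762, and Sgk3, a kinase related to AKT, with 168, 83.8 and 174. The narrowest were Usp7 with 1856 ± 30.4, Akt2 with 1960.4 ± 58.3 and Prkaa2 with 32.5 ± 2.99 normalized counts (SD, n = 3). The median ratio of highest to lowest was 1.39 over the list, against 1.49 over all detected genes.

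Known FOXO target genes were detected in 24 of 28 cases, and 6 had a more than 2-fold range, 25.0% against 21.6% of all detected genes. Gadd45a, a DNA damage response gene, had 801, 203 and 665 normalized counts, lowest in replicate 2 as Foxo1 was. Pdk4, an inhibitor of pyruvate dehydrogenase, had 218, 328 and 110.2 normalized counts, and Fbxo32, the ubiquitin ligase atrogin-1, had 270.1, 546 and 217. These last genes were highest in replicate 2, where Foxo1 was lowest. Prdx3 with 1852 ± 55.2, Bcl2l11 with 67.2 ± 4.19 and Bnip3 with 3607 ± 311 normalized counts (SD, n = 3) varied least. Of the 24 detected targets, 11 were lowest and 11 were highest in replicate 2.

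The hedgehog pathway, upstream of the FOXF genes in embryonic mesenchyme, was represented mainly by its receptors and transducers. Of 15 listed genes 8 were detected. Among the ligands, Shh had 0 reads in every library and Ihh had 7, 3 and 0 reads. Dhh had 17.4, 15.5 and 9.48 normalized counts and fell below the minimum in replicate 3 only. Ptch1, the receptor and a target of the pathway, had 685, 515 and 967 normalized counts, in the same library order as Foxf1, and the coreceptor Boc had 589.6, 337 and 695, again in that order. Gas1, another coreceptor, had 426, 338 and 66.4 and was lowest in replicate 3, where Foxf1 was highest. Gli3 had 269 ± 33.2, Smo 1497 ± 278 and Sufu 569 ± 126 normalized counts (SD, n = 3), and each was highest in replicate 2, where Foxf1 was lowest. Of the 8 detected genes, 4 were highest and 3 were lowest in replicate 2. Gli1, the usual readout of active signaling, was below the minimum, with 5.21, 6.34 and 9.48 normalized counts.

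Genes known as FOXC or FOXF targets in other tissues were detected in 6 of 9 cases, and 3 had a more than 2-fold range. These 3 were 50% of the detected targets, against 21.6% of all detected genes. Cxcl12, a chemokine that depends on Foxc1 in bone marrow stroma, had 709, 2572 and 550.0 normalized counts and was highest in replicate 2, where Foxc1 was lowest and Foxc2 highest. Itgb3, an integrin subunit, had 406, 1366 and 797 normalized counts with its maximum in the same library. Bmp4, a growth factor linked to Foxf1, had 343, 285 and 1466, highest in replicate 3 as Foxf1 was. Hey2 with 66.4 ± 3.44 and Wnt5a with 625 ± 175 normalized counts (SD, n = 3) had smaller ranges.

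All 9 partners and corepressors of Foxp1 were detected, 2 of them with a more than 2-fold range, 22.2% against 21.6% of all detected genes. Gatad2b, a subunit of the NuRD complex, had 39.1, 180 and 80.6 normalized counts, highest in replicate 2 like Foxp1. Foxp2 was scarce, with 39.1, 36.6 and 83.0. Ctbp1 with 3280 ± 65.6, Mta1 with 1390 ± 207 and Hdac1 with 1353 ± 201 normalized counts (SD, n = 3) varied least.

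For each detected member, the genes with the most similar values were sought among 9989 other genes with a mean of at least 100, by the root mean square distance of centred log2(normalized count + 1) over the 3 libraries. With 3 libraries many genes come close by number alone, so the names are a description. The nearest were Cib2, Nol3 and Rassf5 for Foxc1, Mrvi1, Lpin1 and Nrp1 for Foxc2, Atp9a, Pam and Scarf2 for Foxf1, and Kiz, Rilpl2 and Cep19 for Foxf2. For Foxo1 they were Erdr1, Adm2 and Bola1, for Foxo3 Senp2, Lgals8 and Fam118b, for Foxp1 Kif22 and Mid2, and for Foxs1 Zfp354c, Ska3 and Mfap5. All distances were at most 0.025. Nrp1, a coreceptor of VEGF and semaphorins, had 2232, 4256 and 1795 normalized counts, and Mfap5, a microfibril protein, had 3454, 5774 and 2324. Between members, Foxp1 and Foxs1 lay 0.08 apart and Foxc2 and Foxs1 0.09, while Foxc2 and Foxo1 lay 1.34 apart.

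The fibroblast label was checked against markers. All 8 fibroblast markers were detected, with summed levels of 429349, 412543 and 585170 normalized counts in replicates 1, 2 and 3, with Col1a1 the largest part. Within this list Lum had 5073, 289 and 1164, Dcn 3661, 1723 and 3659 and S100a4 86980, 44302 and 77116, all lowest in replicate 2, as was Col1a1, while Col1a2, Col3a1 and Vim were highest in replicate 3 and Pdgfra in replicate 2. Keratinocyte markers were at or near 0, with sums of 0.87, 0 and 2.37 over 4 genes, and Krt15 and Krt1 had no reads. For leukocytes the sums over 4 genes were 4.34, 8.46 and 62.8, with Ptprc at most 1.74, and the sum in replicate 3 came mainly from Laptm5 with 36.7, Tyrobp with 15.4 and Cd52 with 9.48. Endothelial markers summed to 20.8, 190 and 5.93, of which Tek alone gave 185 in replicate 2, where Pecam1 had 3.52, Kdr 1.41 and Cdh5 0.

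Markers of other mesenchymal cells also differed between the libraries, and not all in the same order. The tendon and cartilage list, 4 of 5 detected, summed to 14308, 673 and 2475 normalized counts. Scx had 2470.4, 168 and 1381 and Col2a1 11538, 229 and 833, both lowest in replicate 2. So were Foxc1, Foxd1, Foxf1, Foxf2 and Foxo1, and 37.3% of all detected genes. Of the other genes of this list, Tnmd had 124, 127 and 107 and Sox9 171, 149 and 117, both lowest in replicate 3, and Acan had 4.34, 0 and 36.7. The pericyte and smooth muscle list, 6 of 7 detected, summed to 8285, 11303 and 15394. Within it Notch3 had 40.8, 228 and 23.7 and Des 212, 1208 and 77.0, both highest in replicate 2, as was Myh11. Foxc2, Foxp1 and Foxs1 were highest there too, as were 40.6% of all detected genes. Cspg4, with 3546, 5232 and 11476, was highest in replicate 3 and gave most of the sum there, Rgs5 had 208, 106 and 104, Pdgfrb had 2988 ± 124 (SD, n = 3) and Kcnj8 was at most 0.70. The Schwann and neural crest list, 2 of 4 detected, summed to 148, 59.9 and 151, with Sox10 at most 2.37. The part of these cell types in the forkhead levels was not tested.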

How the data were processed

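The authors prepared stranded mRNA libraries, trimmed adapters with ea-utils, aligned single-end reads to mm10 with TopHat2 2.0.13, kept uniquely mapped reads and counted reads per gene with HTSeq 0.5.3p3 (SAMtools 0.1.19.24 and FastQC 0.11.5 were also named in the submitters' processing notes). The gene annotation, the strand setting and the DESeq version are not given in the sources used here. The deposited signal consists of normalized counts, made by the authors with DESeq by dividing reads by 1 size factor per library (1.15, 1.42 and 0.844 for replicates 1, 2 and 3). In each library 100% of values above 0 came out as whole reads, within 0.01 reads, after division by the smallest step, and these reads were used for intervals. A further 3 columns of per-sample values match no sample label and were not used.

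The table has 43472 rows, of which 20322 had reads, and 2 gene names were repeated. No contrast exists within 1 condition, so no test was run. Means and SDs were taken over 3 libraries, and folds of calls used a pseudocount of 1. Genes, spans and exonic lengths (union of exons) came from GENCODE M21 (GRCm38), and promoter windows from RefSeq (GRCm38.p6). The members, the gene lists and the rules were chosen with earlier results of these data known. Named genes were the members, the 3 widest and the 3 narrowest of each list, forkhead genes within 500 kb, overlapping genes and the 3 nearest patterns per member, of which some genes are not reported here. Fendrr, Gli1, Foxo4, Shh, Ihh, Dhh and the genes singled out among the nearest patterns and markers were chosen after their values were seen. Alternatives were equal library totals, TMM scaling (edgeR 4.0.16 in R 4.3.3), pseudocounts of 0.5 and 10, a 1.5-fold limit, other minimums and each replicate left out. The steps were tested on simulated data. Python 3.11.15, numpy 2.4.6, scipy 1.17.1, pandas 2.3.3 and matplotlib 3.10.9 were used.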

Additional observations from a re-analysis of the deposited data

How the results depend on the processing

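The number of members with a more than 2-fold range was 6 with TMM scaling and with pseudocounts of 0.5 and 10. It was 5 with equal library totals and 7 at a 1.5-fold limit. With no minimum it was 8, as Foxd1 and Foxo6, the latter with 1, 4 and 0 reads, were then counted. Shares over all genes were not computed for either scaling, the other pseudocounts or no minimum, so nothing is read from those counts. Leaving out 1 replicate at a time, with detection still judged in all 3 libraries, gave 0 to 6, with 0 without replicate 2 and 2 without replicate 3. Foxd1, not detected in replicate 2, was therefore not counted, though its replicates 1 and 3 differed by 2.06-fold. Calls of a library apart from both others numbered 4 in 3 members, as Foxd1 had a pair, and 3 with equal totals, 2 with a pseudocount of 10 and 8 at a 1.5-fold limit. For replicate 1 the count of 1 became 0 with a pseudocount of 10, and at 1.5-fold the counts of 3 for replicate 2 and 0 for replicate 3 became 6 and 1, where 22.9% and 8.82% of all genes with a mean of at least 10 were called. At 1.5-fold the genes of the pathway lists with a wide range rose from 16 to 36 by construction, and 48.5% of all detected genes had a range past that limit. By normalized count without division by length 7 of the 10 ranks changed, which follows from the lengths, and with each replicate left out between 0 and 6 did, most without replicate 2. The level of no member moved by more than 1 SD under either scaling. Leaving out a replicate cannot move a mean of 3 values that far and says nothing about stability. No paired analysis was possible because all 3 libraries belong to a single condition. Foxo6 had 1, 4 and 0 reads, and Foxd1 had 10 reads in replicate 2, so their counting intervals are wide. The mean of Foxd1 was 61.0 without replicate 1, against 119.7.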
